A study of Arabidopsis thaliana with 9 samples.

Results

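Among 4502 transcripts that co-purified with RNA polymerase V (Pol V) in *Arabidopsis thaliana*, 592 were pericentromeric, were listed on 1 DNA strand only and were not overlapped by an AGO4-bound transcript. They were chosen by their reads and positions. Both *nrpe1* libraries had at most 3 reads on the transcript, the length was under 1400 bp, and no base overlapped a listed Pol V transcript of the other strand or, on either strand, a listed AGO4-bound transcript. The start lay in 1 window per chromosome, from 11.5 to 18 Mb on chromosome 1, 1.0 to 7.3 Mb on chromosome 2, 10.5 to 17.3 Mb on chromosome 3, 1.5 to 6.4 Mb on chromosome 4 and 9.0 to 15.6 Mb on chromosome 5. Pericentromeric here means inside these windows, since no chromatin mark was used. Because the *nrpe1* reads chose the transcripts, the comparison of *nrpe1* with Col-0 is given as a description.

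The RNA came from nuclei of the aerial part of soil-grown seedlings about 2.5 weeks old, fixed with 0.5% formaldehyde. An antibody against NRPE1, the largest Pol V subunit, was used on *nrpe1* (allele *nrpd1b-11*) and on Col-0 wild type, in 2 biological repeats each. An antibody against AGO4 was used on *ago4* (allele *ago4-1*, introgressed into Col-0) and on Col-0 wild type, with 1 library each. The absence of a listed AGO4-bound transcript thus rests on 1 Col-0 library. Each mutant is represented by 1 allele.

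Pol V is a plant polymerase that makes non-coding RNA at loci undergoing RNA-directed DNA methylation. In the usual account of this pathway, AGO4 carries small interfering RNAs that pair with the nascent Pol V transcript, and the methyltransferase DRM2 is then brought to the locus and methylates cytosines in all sequence contexts. Pericentromeric regions of *Arabidopsis* are rich in transposons and poor in genes.

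The sequences of a few of these transcripts show how different they were from each other. All are given 5′ to 3′ on the strand of the RNA, as DNA letters of the TAIR10.1 genome from RefSeq, with CG dinucleotides in capitals because CG is a context of methylation. The first 3 had the most Col-0 reads per 100 bp. They are PVTrans659 (chr1:17856262-17856494, plus strand), PVTrans3200 (chr4:6047475-6047662, minus strand) and PVTrans360 (chr1:12742840-12743020, plus strand), and each is shown whole.
PVTrans659: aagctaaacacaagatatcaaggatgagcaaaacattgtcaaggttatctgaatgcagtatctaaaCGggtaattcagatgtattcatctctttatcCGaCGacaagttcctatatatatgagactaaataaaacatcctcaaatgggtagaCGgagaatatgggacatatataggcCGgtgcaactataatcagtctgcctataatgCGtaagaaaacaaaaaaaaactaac
PVTrans3200: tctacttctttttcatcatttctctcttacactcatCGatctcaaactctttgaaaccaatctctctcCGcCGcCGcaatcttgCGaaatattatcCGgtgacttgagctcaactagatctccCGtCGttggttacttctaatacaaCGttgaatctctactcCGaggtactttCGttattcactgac
PVTrans360: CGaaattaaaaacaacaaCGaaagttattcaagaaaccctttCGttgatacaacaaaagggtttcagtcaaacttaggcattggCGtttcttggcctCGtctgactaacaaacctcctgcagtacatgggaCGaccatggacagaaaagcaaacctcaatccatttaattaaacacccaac
PVTrans659 and PVTrans360 each hold 6 CG and PVTrans3200 holds 11. PVTrans3200 has more T than A, unlike PVTrans659 and PVTrans360.

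The extremes of GC content are shown by their first 150 bases. PVTrans3185 (these bases at chr4:5846774-5846923, minus strand) had the lowest GC content over its whole length, 23.2%, and PVTrans3825 (chr5:9442233-9442382, plus strand) the highest, 53.3%.
PVTrans3185: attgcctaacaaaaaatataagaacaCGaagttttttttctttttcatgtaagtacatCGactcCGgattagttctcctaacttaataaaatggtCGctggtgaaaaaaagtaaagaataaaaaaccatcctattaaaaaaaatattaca
PVTrans3825: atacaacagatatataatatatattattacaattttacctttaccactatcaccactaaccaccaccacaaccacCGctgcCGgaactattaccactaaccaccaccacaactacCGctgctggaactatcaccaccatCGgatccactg
The stretch of PVTrans3185 has 64 A, 45 T, 23 C and 18 G, and that of PVTrans3825 has 52 A, 34 T, 52 C and 12 G, each with 4 CG.

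The rule was applied in steps. Of the 4502 listed Pol V transcripts, 1904 started inside the windows, 1805 of these had at most 3 reads in both *nrpe1* libraries, 1652 were also shorter than the length limit, 832 had no partner on the other strand and 592 had no AGO4-bound transcript either. This was 31.1% of the Pol V transcripts in the windows. Outside the windows, 782 of 2598 (30.1%) met all the other conditions. These 782 transcripts of the chromosome arms are the nearest comparison. Per Mb, there were 19.0 such transcripts in the windows and 8.88 outside.

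The transcripts lay on all 5 nuclear chromosomes and on both strands. There were 129 on chromosome 1, 132 on chromosome 2, 124 on chromosome 3, 84 on chromosome 4 and 123 on chromosome 5, or 17.1 to 21.0 per Mb of window. Of the 592, 307 were on the plus strand. In windows of 500 kb the highest count was 22, found from 13.0 to 13.5 Mb on chromosome 1 and from 11 to 11.5 Mb on chromosome 3. The median of the mean Col-0 reads was between 28 and 30 on every chromosome, and the intervals of these medians overlapped.

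Reads in *nrpe1* were nearly absent, as the rule required. Repeat 1 of *nrpe1* had 15 reads on all 592 transcripts together and repeat 2 had 68, against 21490 and 16177 in repeats 1 and 2 of Col-0. No read was found in either *nrpe1* library for 536 transcripts (90.5%). Single *nrpe1* libraries had a read on 8 transcripts in repeat 1 and on 50 in repeat 2. In Col-0 the counts ran from 5 to 179 with a median of 34 in repeat 1, and from 3 to 114 with a median of 24 in repeat 2. The depth of whole libraries is unknown here, so the libraries are set side by side unscaled, and a count of at most 3 in *nrpe1* was set to 3 to give a lower bound. By this bound, reads in *nrpe1* were at least 9.5-fold lower at the median (order-statistic 95% interval 9.33 to 9.83), and at least 8.0-fold or 11.3-fold lower with repeat 1 or repeat 2 left out. In edgeR's quasi-likelihood test on the whole list with equal library sizes, all 592 had a Benjamini-Hochberg adjusted p under 0.05, as had 99.9% of all listed transcripts. All of them were selected by the authors for more reads in Col-0, so nothing is read from this count. It became 0 of 592 when repeat 1 or repeat 2 of Col-0 was left out, with 12 and 15 transcripts at an unadjusted p under 0.05 in edgeR, and 0 of 592 under scalings that take most listed transcripts as equal.

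**Figure D1:**
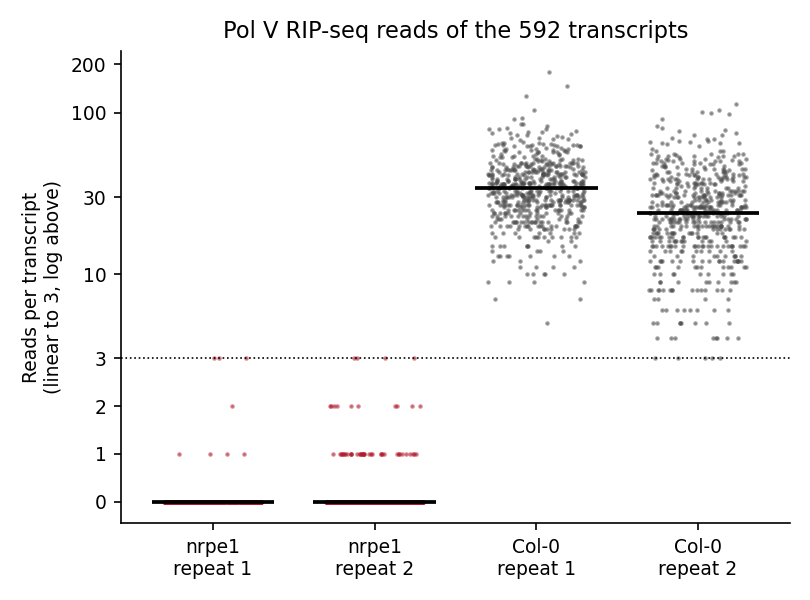
Reads per transcript in each Pol V RIP-seq library, *nrpe1* and Col-0, for the 592 transcripts; points are transcripts, spread sideways at random, bars are medians, and the dotted line marks the limit of 3 reads in *nrpe1*. The axis is linear up to 3 and logarithmic above. The median was 0 in both *nrpe1* libraries, against 34 and 24 in repeats 1 and 2 of Col-0.

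The 4 transcripts with the most Col-0 reads were on chromosomes 1 and 2. PVTrans1368 (chr2:4145029-4146395, plus strand) had 0 and 0 reads in *nrpe1*, against 179 and 83 in Col-0, at least 43.7-fold fewer as unscaled reads. It runs against AT2G10608, a gene annotated as protein-coding on the other strand, and covers it from end to end. PVTrans1609 (chr2:7223840-7225003, plus strand) had 0 and 3 reads in *nrpe1*, against 146 and 100 in Col-0. It overlaps the pseudogene AT2G16670 of the other strand. PVTrans1335 (chr2:2901662-2902653, plus strand) had 0 and 0 reads in *nrpe1*, against 65 and 99 in Col-0, the same mean as PVTrans602 below. It starts inside HEN2, which encodes an RNA helicase that works with the nuclear exosome in RNA decay, and runs in the direction of that gene. It also covers AT2G07000, annotated as protein-coding on the other strand, and reaches into the pseudogene AT2G07010 of its own strand. The counts of the genotypes did not overlap in these 3, nor in any other of the 592. The rule keeps *nrpe1* at 3 reads or fewer, and the authors selected every listed transcript for more reads in Col-0. The share over all listed transcripts is not given here, so nothing is read from this separation.

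On the other chromosomes the highest signals were lower. PVTrans602 led chromosome 1 (chr1:17264649-17265529, minus strand), with 0 and 1 reads in *nrpe1*, against 127 and 37 in Col-0. It lies 56 bp beyond the annotated 3′ end of RAP2.1, the gene of an AP2/ERF-type transcription factor, on the same strand. PVTrans2596 led chromosome 3 (chr3:16072330-16073242, plus strand), with 0 and 0 reads in *nrpe1*, against 60 and 77 in Col-0. It covers the microRNA gene MIR849, which is on the other strand. PVTrans3017 led chromosome 4 (chr4:2353356-2354735, plus strand), with 0 and 0 reads in *nrpe1*, against 92 and 67 in Col-0. At 1380 bp it was also the longest of the 592. PVTrans4066 led chromosome 5 (chr5:14572890-14573704, plus strand), with 0 and 2 reads in *nrpe1*, against 60 and 69 in Col-0.

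The densest transcripts were short. PVTrans659, with 233 bp, had 0 and 0 reads in *nrpe1*, against 93 and 36 in Col-0, a mean of 27.7 Col-0 reads per 100 bp. PVTrans3200, with 188 bp, had 0 and 0 reads in *nrpe1*, against 66 and 25 in Col-0, a mean of 24.2 per 100 bp. It overlaps the pseudogene AT4G09565 of the other strand. PVTrans360, with 181 bp, had 0 and 0 reads in *nrpe1*, against 21 and 49 in Col-0, a mean of 19.3 per 100 bp. For the first 2, repeat 1 of Col-0 was the higher library, and for PVTrans360 it was repeat 2.

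Length and read density went opposite ways. The median length was 664 bp (order-statistic 95% interval 623 to 696), and the quartiles were 463 and 873 bp. The transcripts were divided by length into 3 classes of nearly equal number. In the shortest, from 160 to 525 bp, the median was 7.45 Col-0 reads per 100 bp. It was 4.53 in the middle class and 3.28 in the longest, from 811 to 1380 bp. The medians of the mean Col-0 reads themselves were 27, 28 and 33 in these classes. Across the 592 transcripts, length and reads per 100 bp had a Spearman rho of -0.732, a description in which both share the length. The fewest mean Col-0 reads of any of them was 16.0, and the authors' calling required a number of reads. The part of this requirement in the fall of density with length was not tested.

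The transcripts had fewer reads than those with AGO4 or with a partner strand. Their median of the mean Col-0 reads was 28.5 (28 to 29.5), against 39.5 (35.5 to 42.5) for the 240 pericentromeric single-strand transcripts that met an AGO4-bound one, and 41.0 (39.0 to 43.0) for the 820 with a transcript on the other strand. The chromosome arms gave 29.5 (29.0 to 30.5) for the same kind of transcript, an interval that overlaps that of the windows. Per 100 bp, the medians were 4.65 (4.47 to 4.84) in the windows and 5.16 (4.96 to 5.45) in the arms, where the median length was 596 bp (564 to 623). The intervals cover the spread over transcripts, which are not replicates, and no error between libraries.

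Whether a single-strand transcript had no listed AGO4-bound transcript on it went with its number of reads. The 832 pericentromeric and the other single-strand transcripts that met the limits on *nrpe1* reads and length were divided into 4 classes at the quartiles of their mean Col-0 reads. In the windows, 183 of 221 (82.8%, Wilson 95% interval 77.3 to 87.2%) had no AGO4-bound transcript in the lowest class, 82.1% and 74.6% in the next and 91 of 205 (44.4%, 37.8 to 51.2%) in the highest. In the arms these shares were 80.3%, 72.0%, 77.1% and 45.8%. The intervals of windows and arms overlapped in each class. AGO4-bound transcripts were called in a separate experiment from 1 library per genotype, with a median of 16 Col-0 reads per listed transcript, so binding below the limit of that list would count as absent. From the AGO4 signal on the whole Pol V list, the authors concluded that AGO4 associates with most of these RNAs. How much of the relation with reads comes from the depth of the AGO4 libraries was not tested.

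**Figure D2:**
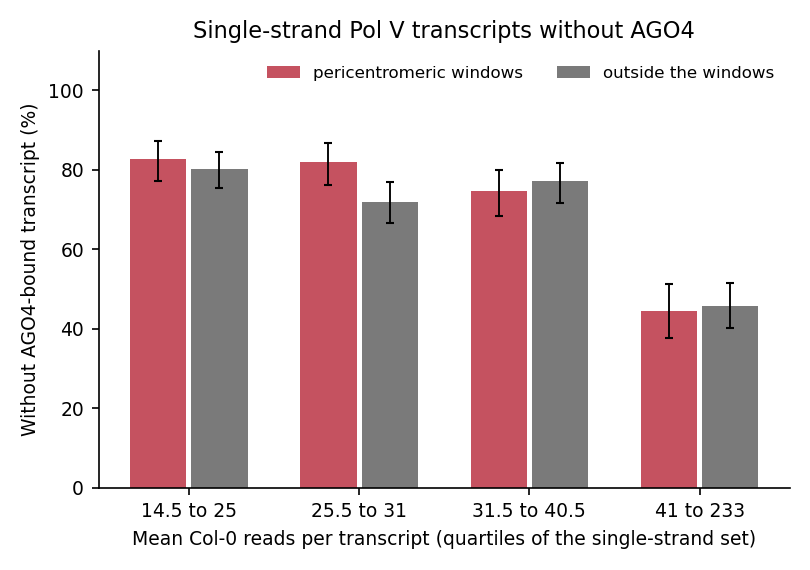
Share of single-strand Pol V transcripts without an overlapping AGO4-bound transcript (%), by quartile class of the mean Col-0 reads, in the pericentromeric windows and outside them; error bars are Wilson 95% intervals. The share was 82.8% in the lowest and 44.4% in the highest class of the windows, and 80.3% and 45.8% in those classes outside.

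The repeats of Col-0 ranked the transcripts differently. Across the 592, the reads of repeat 1 and repeat 2 had a Spearman rho of -0.157, against -0.077 in the arms, 0.316 in the pericentromeric single-strand transcripts with AGO4 and 0.395 in those with a partner strand. These are descriptions over transcripts from the same 2 libraries, and the authors' requirements on the reads of both repeats together cut away transcripts low in both. The log2 ratio of repeat 1 to repeat 2 had a median of 0.43 (0.34 to 0.55) and an SD of 1.23. More than a 4-fold difference between repeats was found for 85 of the 592 (14.4%, Wilson 95% interval 11.8 to 17.4%), 13.2% of those in the arms, 24 of the 240 with AGO4 and 7.93% (6.27 to 9.98%) of those with a partner strand.

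Single transcripts show the size of this spread. PVTrans2327 had 0 and 0 reads in *nrpe1*, against 77 and 10 in Col-0, and PVTrans1494 had 0 and 0 in *nrpe1*, against 75 and 12 in Col-0. Among transcripts with at least 10 reads in each Col-0 library, these 2 leaned most to repeat 1. The opposite end was held by PVTrans344, with 0 and 0 reads in *nrpe1*, against 10 and 66 in Col-0, and PVTrans3797, with 0 and 0 in *nrpe1*, against 10 and 58 in Col-0. A mean over the repeats of Col-0 therefore has a large error for any single transcript, and the order of transcripts by their reads is not firm.

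**Figure D3:**
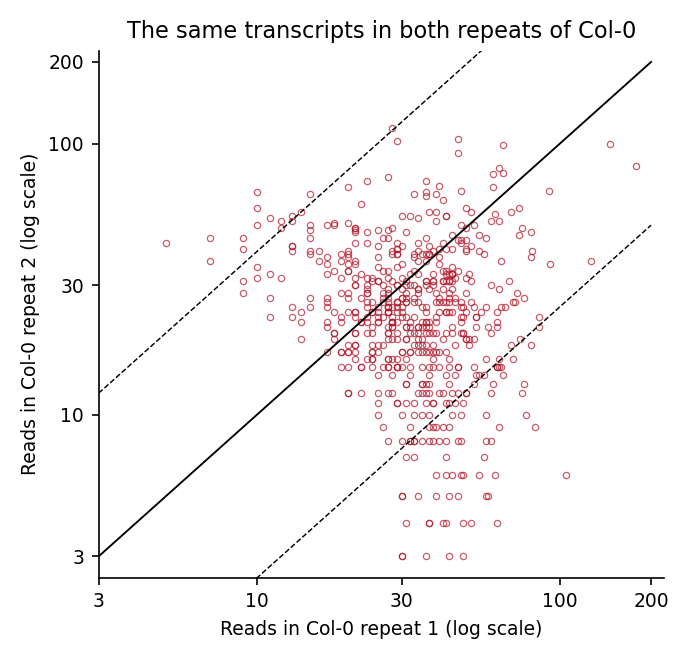
Reads of each of the 592 transcripts in repeat 1 (horizontal) and repeat 2 (vertical) of Col-0, both on log scales; the solid line marks equal counts and the dashed lines 4-fold differences. The cloud has no rising trend, with a Spearman rho of -0.157, and 85 points lie beyond the dashed lines.

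Neighbours on the Pol V list were nearer than in the arms. The median gap to the nearest other Pol V transcript was 4522 bp (3968 to 4937), against 10381.5 bp (8990 to 11859) in the arms. It was 4828.5 bp (4042 to 5484) for the pericentromeric single-strand transcripts with AGO4, so the short gap was shared within the windows, which hold 1904 Pol V transcripts in 31.1 Mb, against 2598 in 88.0 Mb outside. The nearest transcript of the same strand was at a median of 6589 bp and that of the other strand at 7834.5 bp. A Pol V transcript lay within 1 kb of 103 of the 592 (17.4%, 14.6 to 20.7%), against 10.1% (8.18 to 12.4%) in the arms and 13.8% (9.96 to 18.7%) with AGO4. On the same strand, 23 (3.89%) had a neighbour within 400 bp. Whether such neighbours are parts of 1 RNA was not tested.

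The median gap to an AGO4-bound transcript of the full list was shorter than in the arms. The rule had removed every transcript that overlaps one, in the windows and in the arms alike. The median gap was 8137.5 bp (6986 to 9158), against 11264 bp (9985 to 12645) in the arms, and for 253 of the 592 (42.7%) the nearest was over 10 kb away. To AGO4-bound transcripts with at least 10 deduplicated Col-0 reads, it was 24434.5 bp (20167 to 27724), against 30944 bp (26743 to 34314) in the arms. These intervals overlap. Within 1 kb, 46 (7.77%, 5.88 to 10.2%) had an AGO4-bound transcript, against 5.37% (4.0 to 7.18%) in the arms, a difference inside the intervals.

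**Figure D4:**
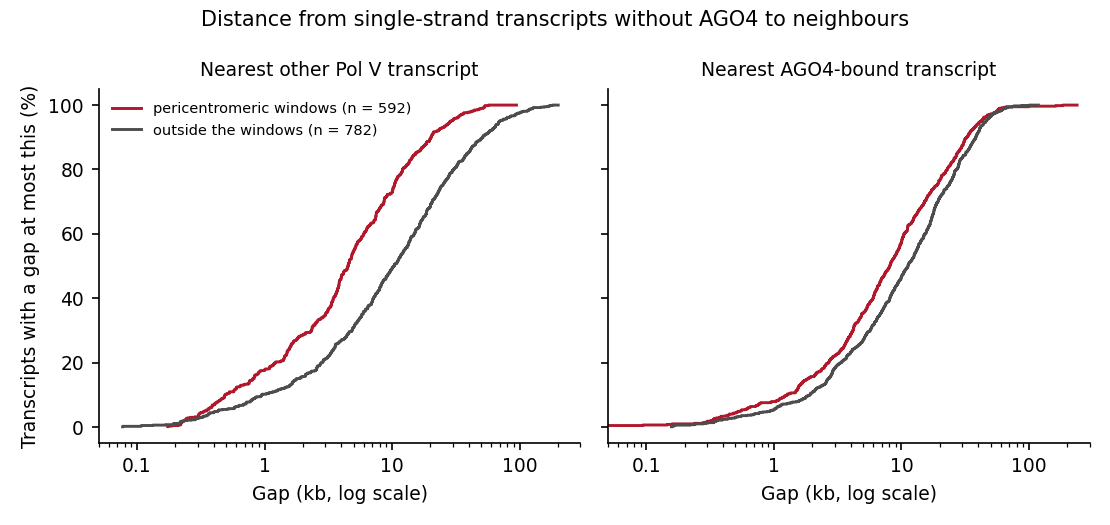
Cumulative share of transcripts (%) by the gap to the nearest other Pol V transcript (left) and the nearest AGO4-bound transcript (right), in kb on a log scale, for the 592 pericentromeric transcripts and the 782 of the same kind outside the windows. The median gap to a Pol V transcript was 4522 bp in the windows and 10381.5 bp outside, and that to an AGO4-bound transcript 8137.5 bp and 11264 bp.

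Annotated genes were less often on or near these transcripts than in the arms. With the RefSeq annotation of TAIR10.1, 226 of the 592 (38.2%, 34.4 to 42.2%) overlapped a gene or pseudogene by at least 1 bp, against 48.6% (45.1 to 52.1%) in the arms. Protein-coding genes were overlapped by 17.7% (14.9 to 21.0%), against 32.9% (29.7 to 36.2%) in the arms, and pseudogenes by 15.7% (13.0 to 18.9%), against 9.97% (8.07 to 12.3%) in the arms. The other pericentromeric transcripts were also below the arms in protein-coding genes and above them in pseudogenes, with AGO4 by a difference in protein-coding genes inside the intervals. Single-strand transcripts with AGO4 overlapped any gene or pseudogene in 47.1% (40.9 to 53.4%), a protein-coding gene in 25.4% (20.3 to 31.3%) and a pseudogene in 17.5% (13.2 to 22.8%). Those with a partner strand did so in 39.4%, 12.6% and 20.7%, in the same order. Long non-coding RNA genes were overlapped by 27 (4.56%), against 5.5% in the arms, 4.17% with AGO4 and 7.07% with a partner strand. A gene or pseudogene on their own strand was overlapped by 82 (13.9%), against 14.2% in the arms, 15.4% with AGO4 and 20.7% with a partner strand. The median distance to a protein-coding gene was 731 bp (606 to 902), against 217 bp (180 to 260) in the arms. The authors had removed reads inside genes of the TAIR10 annotation and transcripts that contain such genes, which limits how much of a TAIR10 gene these transcripts can overlap. Transposons were not analysed here.

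Close to genes, the transcripts lay on both sides and on both strands. Of 229 within 1 kb of a protein-coding gene but not on it, 59 lay upstream of that gene on its strand and 75 upstream on the other strand, while 54 lay downstream on its strand and 41 downstream on the other. In the arms the counts among 363 were 104 and 122 upstream and 72 and 65 downstream.

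GC content rose at the start of the transcripts and fell at their end. The median was 34.1% (33.5 to 34.6%) inside, against 31.4% in the 500 bp upstream and 29.8% in the 500 bp downstream. GC was above the mean of both flanks in 420 of the 592 (70.9%, 67.2 to 74.5%), with a median step of 3.31 percentage points (2.6 to 3.91). The share was 71.0% in the arms, 65.8% with AGO4 and 74.1% with a partner strand. Among those outside annotated genes it was 73.2% (68.5 to 77.5%). CG sites, counted on both strands, had a median of 4.78 per 100 bp inside and 3.8 in the flanks, while cytosines in the CHH context (H is any base but G) had 25.2 inside and 23.3 in the flanks.

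The RNA strand held more A than T. This was so in 417 of the 592 (70.4%, 66.6 to 74.0%), with a median difference of 3.42 points of percent (2.65 to 4.21). It was the case for 70.4% of those on the plus strand and 70.5% of those on the minus strand, and for between 64.4% (chromosome 2) and 76.6% (chromosome 3) on single chromosomes. The arms had 67.5% (64.2 to 70.7%) and the pericentromeric single-strand transcripts with AGO4 75.4% (69.6 to 80.4%). Transcripts with a partner strand, in which A on one strand is T on the other, had 53.9% (50.5 to 57.3%). In the averages by position, A minus T was -0.417% of bases between 100 and 300 bp upstream of the 5′ end and 3.63% between 100 and 300 bp inside. At the 3′ end it was 3.92% inside and -0.267% downstream. The excess of A was inside the transcripts in these averages, which cover 544 transcripts of at least 300 bp. They leave out the 100 bp next to each end. In the bins of 20 bp centred from 90 to 10 bp upstream of the 5′ end, A minus T was 0.818% to 2.93%.

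**Figure D5:**
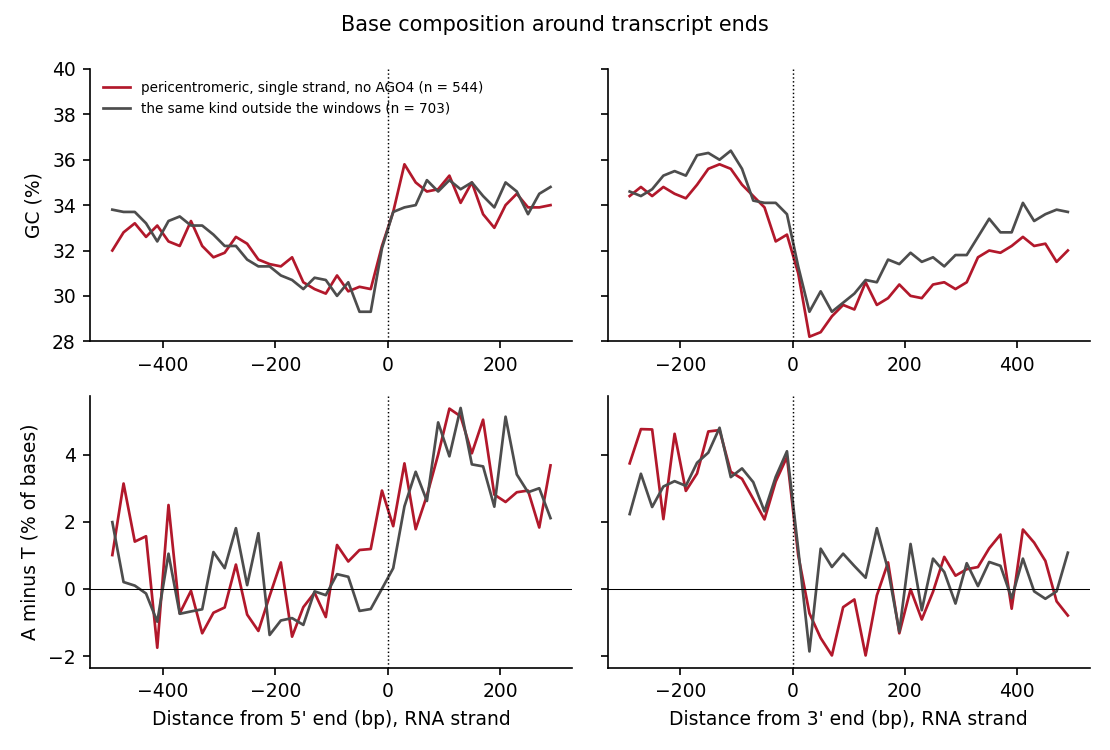
GC content (%, top) and A minus T (% of bases, bottom) in 20 bp bins around the 5′ end (left) and the 3′ end (right) of transcripts of at least 300 bp, read along the RNA strand, for 544 pericentromeric transcripts and 703 of the same kind outside the windows. Between 100 and 300 bp from the ends, GC and A minus T are both higher inside than outside. There, A minus T is 3.63% inside and -0.417% upstream of the 5′ end of the pericentromeric transcripts.

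The transcripts were about as often of unique sequence as the rest of the list, which the authors built from reads they call unique. All 50-base words were found once in the genome for 394 of the 592 (66.6%, 62.7 to 70.2%), against 70.2% (66.9 to 73.3%) in the arms, 71.7% (65.7 to 77.0%) with AGO4 and 68.0% of all listed transcripts, and fewer than 50% of the words for 10. Counted over words and not over transcripts, 83.5% of the 50-base words in the windows were found once, against 97.4% outside. PVTrans3186 and PVTrans1605, named after their values were seen, had no unique 50-base word. PVTrans3186 had 0 and 2 reads in *nrpe1*, against 65 and 78 in Col-0, and PVTrans1605 had 0 and 0 in *nrpe1*, against 20 and 39 in Col-0. If unique reads in the authors' calling means reads with 1 match in the genome, this is at odds with their listing, and the counts and positions of these 2 are in doubt. The authors' mapping placed reads with several matches once, and whether the reads of these 2 come from other copies was not tested.

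A few transcripts shared sequence with each other. There were 14 pairs with a 50-base word in common, among 19 transcripts in 8 groups. In 10 pairs the partners were on different chromosomes, and in 4 they were neighbours under 10 kb apart. The RNAs carried the same sequence in 9 pairs and complementary sequence in 5. All pairs within the group of 4 described below were on different chromosomes and had the same sequence. A single AG repeat thus enters both of these counts several times. PVTrans3078 on chromosome 4 and PVTrans3959 on chromosome 5 shared the most words, 74. These lie in more than 1 stretch, of which the longest has 91 bases. The 2 lines show only this longest stretch in capitals with its surroundings, PVTrans3078 as its RNA (chr4:3861606-3861736, plus strand) and PVTrans3959 as the complement of its RNA (chr5:12969342-12969472, transcribed from the minus strand).
PVTrans3078: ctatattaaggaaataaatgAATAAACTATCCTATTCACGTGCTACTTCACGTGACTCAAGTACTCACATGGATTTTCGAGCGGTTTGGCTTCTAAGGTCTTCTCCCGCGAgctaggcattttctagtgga
PVTrans3959: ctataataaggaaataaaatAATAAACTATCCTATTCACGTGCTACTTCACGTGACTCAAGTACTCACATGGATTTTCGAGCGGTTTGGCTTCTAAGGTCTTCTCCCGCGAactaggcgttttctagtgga
PVTrans3078 had 0 and 0 reads in *nrpe1*, against 24 and 20 in Col-0, and PVTrans3959 had 0 and 0 in *nrpe1*, against 46 and 44 in Col-0. Each was listed on a single strand of its own locus, and over this stretch their RNAs were complementary.

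The largest group sharing words had 4 transcripts on 4 chromosomes, which had in common a repeat of AG of 65 bases, shown in capitals. All 4 are transcribed from the minus strand and all 4 RNAs read AG, not CT.
PVTrans562 (chr1:16868424-16868528): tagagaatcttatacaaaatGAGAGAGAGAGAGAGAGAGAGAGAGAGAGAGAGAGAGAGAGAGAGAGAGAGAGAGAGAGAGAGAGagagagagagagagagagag
PVTrans1561 (chr2:6738462-6738566): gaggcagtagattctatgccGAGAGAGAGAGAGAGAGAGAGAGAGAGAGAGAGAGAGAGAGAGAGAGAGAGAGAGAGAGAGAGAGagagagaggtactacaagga
PVTrans2407 (chr3:11895376-11895480): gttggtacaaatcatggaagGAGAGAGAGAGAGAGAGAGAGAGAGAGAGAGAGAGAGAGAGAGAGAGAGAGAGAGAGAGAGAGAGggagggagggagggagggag
PVTrans2998 (chr4:2269192-2269296): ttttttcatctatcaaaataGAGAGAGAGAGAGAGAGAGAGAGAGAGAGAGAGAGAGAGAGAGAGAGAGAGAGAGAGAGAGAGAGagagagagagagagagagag
PVTrans562 had 0 and 2 reads in *nrpe1*, against 53 and 23 in Col-0. PVTrans1561 had 0 and 0 in *nrpe1*, against 27 and 15 in Col-0. PVTrans2407 had 0 and 0 in *nrpe1*, against 36 and 22 in Col-0. PVTrans2998 had 0 and 0 reads in *nrpe1*, against 20 and 17 in Col-0, and so the fewest in Col-0. All 4 had more Col-0 reads in repeat 1, as had 399 of the 592 (67.4%).

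The search was then widened to AG or CT repeated 10 times without a break, on the RNA strand. AG repeats were found in 7 of the 592 (1.18%, 0.574 to 2.42%) and CT repeats in 0, which allows a share of up to 0.507% if a count of 0 is read as at most 3 transcripts, with a Wilson upper limit of 0.645%. The other 3 with AG were PVTrans345, with 0 and 0 reads in *nrpe1*, against 28 and 14 in Col-0, PVTrans350, with 0 and 0 in *nrpe1*, against 53 and 21 in Col-0, and PVTrans2450, with 0 and 1 in *nrpe1*, against 33 and 65 in Col-0. Of all 4502 listed transcripts, 16 (0.355%) had AG and 7 (0.155%) had CT repeats of this kind. In the arms these numbers were 0 and 1 of 782. In the windows they were 1 and 0 of the 240 with AGO4, and 3 and 3 of the 820 with a partner strand. The AG shares were 0.417% (0.0736 to 2.32%) with AGO4 and 0.366% (0.124 to 1.07%) with a partner strand. Both intervals overlap that of the 592. Of the 7 with AG among the 592, only PVTrans350 is transcribed from the plus strand. This search was made after the repeat had been seen, on a handful of transcripts, and has no test.

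Transcripts close to a limit of the rule are given as a description. Of the 592, 7 had 3 reads in an *nrpe1* library, among them PVTrans1273 with 3 and 0 reads in *nrpe1*, against 37 and 17 in Col-0. Just outside, 16 transcripts failed this limit alone, such as PVTrans3201 with 4 and 2 reads in *nrpe1*, against 54 and 10 in Col-0. The shortest transcript kept out by its length alone, PVTrans453, had 1417 bp, and 23 were kept out in this way. The nearest partner strand left in was 174 bp from PVTrans1268, while PVTrans1475 was left out for an overlap of 5 bp. The nearest AGO4-bound transcript left in was 2 bp from PVTrans1418, while PVTrans2340 was left out for an overlap of 3 bp. At the border of a window, PVTrans4153 lay 1659 bp inside and PVTrans4154 lay 458 bp outside, both on the plus strand of chromosome 5.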

How the data were processed

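RNA bound by NRPE1 or AGO4 was sequenced with a stranded mRNA kit. The authors used SOAPsplice on TAIR10, built transcripts from unique reads that lay outside gene annotations, and deposited raw read counts per transcript and library, without normalization. Their p-value and q-value columns hold the authors' own test and were not used. Of the 9 samples, 6 libraries were analysed, 4 of Pol V and 2 of AGO4, and 0 per-library columns were left unused. On the listed transcripts, Pol V libraries had 1980 to 251106 reads and AGO4 libraries 6245 to 118313. Library totals are unknown here, and intervals cover counting error or the spread over transcripts only.

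The members and lists were chosen with earlier results of these data known. Lengths equal end minus start, so starts were read as counted from 0 and are printed 1 higher. If the files count from 1, sequences shift by 1 base. edgeR 4.0.16 and DESeq2 1.42.0 in R 4.3.3 tested the whole list (common biological coefficient of variation 0.522). Python 3.11.15 with pandas 2.3.3 and scipy 1.17.1 did the rest. The interval, word and count code was tested on simulated data. Replicate numbers are those of the sample titles, which do not say whether same-numbered libraries of the genotypes share an experiment. Deviations of same-numbered libraries had a correlation of 0.112 over 4502 transcripts and of 0.274 over the 795 with an *nrpe1* read.

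Named transcripts were those with the most Col-0 reads on each chromosome and of all, the densest, the shortest and longest, the extremes of GC and of the ratio between repeats, the largest group sharing 50-base words and those at the limits. The shortest is not reported here. By number, none of the 27 transcripts with listed primers was among the 592, which takes the numbering of both lists to be the same. Genes and sequences were those of RefSeq TAIR10.1. Alternatives changed the limits, scaling, test, library left out, distances and word length.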

Additional observations from a re-analysis of the deposited data

How the results depend on the processing

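Members numbered 592. They were 536 where both *nrpe1* counts had to be 0, 636 where a partner strand had to cover 50% of the transcript, 633 where AGO4-bound transcripts counted on the same strand only and 592 where the whole transcript had to lie inside the windows. The borders of the windows were not moved. The count of transcripts lower in *nrpe1* depended on scaling: it was 4498 (592 of the members) with equal library sizes, 4499 and 592 with DESeq2 at size factors of 1, and 0 and 0 with edgeR's TMM or DESeq2's own size factors, where 3075 and 1712 of all transcripts, and 367 and 101 of the members, had an unadjusted p under 0.05. With a replicate block in edgeR the counts were 4091 and 564, and it was run on these counts only. Leaving out 1 library gave 0 to 4492 of all and 0 to 592 of the members. Both Col-0 libraries decide this: without Col-0 repeat 1 or without Col-0 repeat 2 there were 0 calls, with 443 and 594 of all transcripts at an unadjusted p under 0.05 in edgeR. A lone Col-0 library is assumed there to vary like the *nrpe1* ones.

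Leaving out a repeat of Col-0 gave median reads of 24.0 to 34.0, reads per 100 bp of 3.86 to 5.15 and folds of 8.0 to 11.3. The fold bound was 28.5 with a floor of 1 read. The median log2 ratio between repeats was 0.02 once each library was scaled to its total on the list. Genes or pseudogenes counted 129 where they had to cover 50% of a transcript or more and 82 on the same strand. Median GC was 32.2% with 200 bp added on each side, and the median share of words found once was 99.3% for 36-mers. A Pol V transcript lay within 500 bp of 59 members and within 2 kb of 168. An AGO4-bound transcript lay within 500 bp of 25, within 2 kb of 92, and within 1 kb of 23 where it had at least 10 deduplicated Col-0 reads. By alternatives chosen after seeing the data, more A than T was found in 66.3% of members without a run of 8 A, and in 70.9% of those without a run of 8 A or of 8 T.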
